A study of Caenorhabditis elegans with 32 samples.

Results

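The 300 most abundant piRNAs of whole Caenorhabditis elegans were followed through 4 generations, with and without hypoxia, in wild type and in a mutant of the nuclear Argonaute HRDE-1. They are the 300 of 13664 entries of the deposited piRNA table with the largest sum of raw counts over 32 libraries, or 2.20% of the entries. Together they held 31.2% of all piRNA counts. The members were chosen by their summed raw counts, so their high level and their share are descriptions and carry no test.

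Small RNA was sequenced from whole worms of 2 genotypes, WT and hrde-1, at the parental generation P0 and the later generations F1, F2 and F3, each under a normoxia and a hypoxia label. Every one of the 16 groups had 2 libraries. Per the labels' protocols, hypoxia meant that larvae of the L4 stage spent 16 h at 0.1% oxygen and 20 °C before return to ambient oxygen near 20%. The labels give neither the hrde-1 allele nor which generations were themselves exposed, so at F1 to F3 hypoxia is the label of the line only. All groups were reared at 20 °C, and all RNA was treated with the pyrophosphohydrolase RppH before library construction. The labels do not say whether the libraries of a group came from separate cultures. The p-values thus measure only the spread between these libraries, which may be technical. Libraries of successive generations may descend from the same animals, so those pooled over generations may not be independent either.

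piRNAs of C. elegans, also called 21U RNAs, are made in the germline from many small genes and are bound by the Piwi protein PRG-1. PRG-1 loaded with a piRNA scans transcripts by imperfect pairing and recruits RNA-dependent RNA polymerases, which make secondary small RNAs of the 22G class on the target. HRDE-1 carries secondary small RNAs into germline nuclei, where they direct heritable silencing, and therefore acts downstream of piRNAs. The comparisons below ask whether the most abundant piRNAs themselves differed under hypoxia, without HRDE-1, or from one generation to the next. In whole worms, fewer germ cells and less piRNA per germ cell cannot be told apart.

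Each entry is named by a piRNA number and the stretch of it that the reads covered. Of the 300, 299 covered positions 1 to 21 and the other was piR-cel-17390:3-21, which covered positions 3 to 21. The files pair these names with neither a sequence, a locus nor a systematic 21U name, so no sequence, gene or target is given for any of them. No piRNA appears more than once among the 300. The whole table holds 12830 distinct piRNA names, of which 663 have more than 1 entry.

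The abundant end of the table was broad rather than dominated by a few molecules. The first-ranked piRNA, piR-cel-16548, held 0.457% of all piRNA counts, the first 10 held 2.81%, the first 100 held 15.1% and the first 1000 held 59.1%. After piR-cel-16548, with 56777 counts in all, came piR-cel-715 with 44018, piR-cel-1544 with 35980, piR-cel-3085 with 35249, piR-cel-4864 with 31119, piR-cel-4649 with 30137, piR-cel-1402 with 29466, piR-cel-1018 with 29448, piR-cel-1848 with 28857 and piR-cel-4230 with 27611. There was no step at the boundary. The last 3 inside, piR-cel-3114, piR-cel-251 and piR-cel-16, had 7869, 7856 and 7844 counts, and the first 3 outside, piR-cel-2663, piR-cel-5207 and piR-cel-225, had 7829, 7825 and 7776.

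Levels are given as CPM, the count of a piRNA scaled to 1000000 piRNA counts. In this paragraph CPM is relative to the plain library total, and elsewhere it is scaled by TMM (trimmed mean of M-values). The coefficient of variation of a member, its standard deviation over the 32 libraries relative to its mean, had a median of 31.1% and ran from 14.9% to 153%, with 135 of the 300 under 30%. For comparison, the 1362 other entries above 0 in every library had a median of 39.6%. The steadiest was piR-cel-251, at a mean of 639 CPM with a lowest value of 393 and a highest of 918, followed by piR-cel-5493 with a coefficient of 15.8% and piR-cel-4972 with 16.0%. The most variable was piR-cel-499, with a median of 1003 CPM and a highest value of 13486 in 1 F3 hrde-1 hypoxia library. piR-cel-17390:3-21 and piR-cel-1712 followed with coefficients of 134% and 120%, each taken as a single entry of a piRNA with more than 1 entry.

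Of the 300, 292 were above 0 in every library, and 23 of 9600 member values were listed at 0. Outside the F2 WT normoxia libraries the smallest value above 0 in a library was 5 to 8 counts, so a 0 in this table is only listed as such, and no fold is given against it. Of the zeros, 16 belonged to piR-cel-17390:3-21, and 6 fell on other members in the F3 hrde-1 normoxia libraries.

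Depth was 215629 to 738793 piRNA counts per library, and piRNAs made up 6.40% to 14.8% of the counts of the 4 deposited small RNA classes (22G RNA, miRNA, piRNA and snoRNA). The F3 hrde-1 normoxia libraries stood apart. They listed 4153 and 3585 entries above 0, against a median of 6478 over all libraries. The number of members among a library's own 300 most abundant entries ran from 164 to 268 over the libraries, with a median of 247. They also lay farthest out on the first principal component of the 300, which held 37.1% of their variance, with scores of 16.6 and 24.5. The P0 WT normoxia libraries differed in another way, since 22G RNA held 9.27% and 6.15% of their 4-class counts against a median of 35.2%. F2 hrde-1 normoxia replicate 2 was also low in 22G RNA, at 14.9% against 33.3% in replicate 1. Its piRNA share, 14.8%, was the highest of all libraries. As a compared group, the F3 hrde-1 normoxia pair enters hypoxia in hrde-1 at F3 and over F1 to F3. It also enters the F1 to F3 interaction, hrde-1 against WT under normoxia and hrde-1 normoxia across generations. The P0 WT normoxia pair likewise enters hypoxia in WT at P0, the P0 interaction, hrde-1 against WT under normoxia and WT normoxia across generations. F2 hrde-1 normoxia replicate 2 is compared in the same tests as the F3 hrde-1 normoxia pair, with F2 in place of F3. Comparisons within a generation, interactions and those across generations also used a spread estimated over all 32 libraries, which includes all of these. The median SD of the members (log2) was 0.497 in the F3 hrde-1 normoxia pair, against a median of 0.173 over the 16 groups. Apart from the values given without single libraries or without F3, the part of these libraries in the results was not tested.

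The share of all piRNA counts held by the 300 was on average higher under hypoxia in WT and lower under hypoxia in hrde-1. In WT it was 32.9% and 31.0% under normoxia and 34.1% and 34.2% under hypoxia at P0, 28.3% and 28.8% against 30.6% and 29.9% at F1, 30.2% and 31.3% against 32.9% and 33.9% at F2, and 30.4% and 30.4% against 36.5% and 33.6% at F3. In every generation both WT hypoxia libraries thus lay above both WT normoxia libraries. In hrde-1 it was 34.04% and 32.3% under normoxia and 32.1% and 32.2% under hypoxia at P0, 34.04% and 32.8% against 28.1% and 27.7% at F1, 27.6% and 32.9% against 24.6% and 28.2% at F2, and 35.8% and 29.5% against 30.2% and 27.2% at F3. Here both hypoxia libraries lay below both normoxia libraries at P0 and F1, while the groups overlapped at F2 and F3. Averaged over the 4 generations the hypoxia share minus the normoxia share was 2.82 percentage points in WT and -3.60 points in hrde-1. Choosing the 300 without any 1 library left the mean share over libraries between 31.18% and 31.20%.

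**Figure D1:**
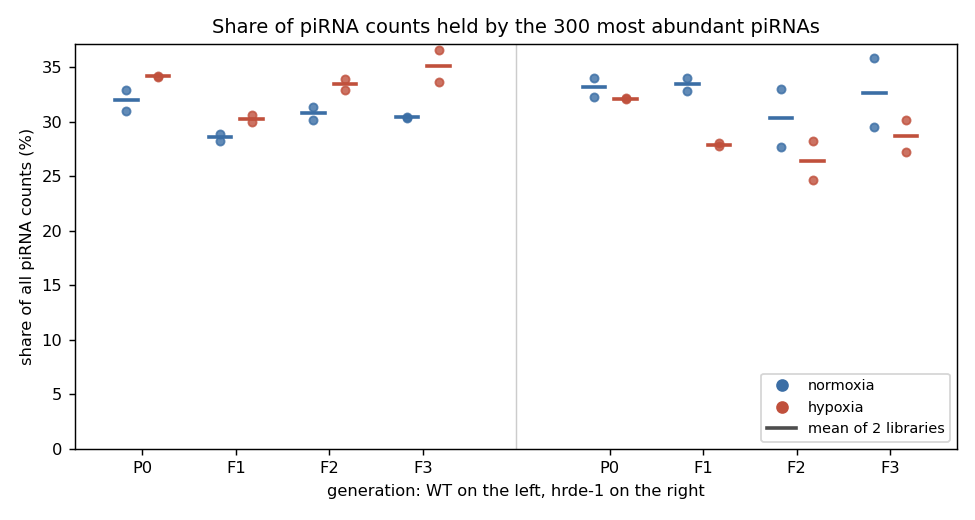
Share of all piRNA counts held by the 300 most abundant piRNAs (vertical axis, percent) by generation (horizontal axis), with WT on the left and hrde-1 on the right. Points are libraries and bars are means of 2. The hypoxia means lie above the normoxia means in every WT generation and below them in every hrde-1 generation.

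Single members were compared with the quasi-likelihood test of edgeR over the whole piRNA table, with Benjamini-Hochberg adjustment over all entries tested and a threshold of 0.05. The 300 have more counts than the other entries, which can raise their share of calls. How far it did so was not tested. Log2 fold changes are given ± SE. In WT at P0, 1 of the 300 rose under hypoxia and 1 fell, when 0.113% of the 7978 entries tested passed, 0.0376% as higher and 0.0752% as lower. The median log2 fold change of the 300 was -0.08 against -0.18 for all entries, and it turned to 0.06 with DESeq2 size factors. piR-cel-15879 measured 252 and 162 CPM under normoxia and 1518 and 1369 CPM under hypoxia, so the groups did not overlap. With 2 libraries a group this was common, as it held for 220 of the 300 and 46.6% of all 7978 entries. Over the hypoxia comparisons within a generation it held for 26.6% to 47.9% of all entries. Its log2 fold change was 2.80 ± 0.37 (n = 2 libraries a group, edgeR adjusted p = 4.45e-05). piR-cel-1507 measured 2118 and 2373 CPM under normoxia and 439 and 464 CPM under hypoxia, again without overlap, a log2 fold change of -2.31 ± 0.37 (edgeR adjusted p = 0.00066). Without P0 WT hypoxia replicate 1 its adjusted p was 0.14, and without P0 WT hypoxia replicate 2 it was 0.0589. The count of 2 became 15 with DESeq2 and 22 when the F3 libraries were left out of the fit. For both piRNAs the P0 WT normoxia libraries lay apart from the 8 P0 and F1 hrde-1 libraries, in which piR-cel-15879 ran from 831 to 1653 CPM and piR-cel-1507 from 383 to 773 CPM. The same 2 libraries are those with the lowest 22G shares, whose part in these calls was not tested.

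Over F1 to F3 in WT, the most abundant piRNA of all was the one that rose. piR-cel-16548 measured 3993 and 3769 CPM under normoxia and 6259 and 6636 CPM under hypoxia at F1, 4994 and 5706 against 8270 and 12143 at F2, and 4482 and 4388 against 7570 and 9327 at F3. All 6 hypoxia libraries of F1 to F3 lay above all 6 normoxia libraries. With generation as a term its log2 fold change over F1 to F3 was 0.93 ± 0.11 (n = 6 libraries a group, edgeR adjusted p = 0.00208), and it was the 1 member, and the 1 entry of the 6577 tested, past the threshold (0.0152%, all of it higher, and 0% lower). Leaving out any 1 library kept the adjusted p between 0.00201 and 0.0402, whereas without the F3 libraries it was 0.0742 at a log2 fold change of 0.89. At P0 the WT values were 6829 and 7016 CPM under normoxia and 7167 and 8219 CPM under hypoxia. There the hypoxia libraries were also the higher, by a smaller margin.

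The other members did not pass the test one by one. Over F1 to F3 the median log2 fold change of the 300 was 0.20, with 237 of 300 above 0, when the median of all entries tested was -0.09 and 43.7% of them were above 0. The median was 0.24 for the first 100 ranks, 0.18 for the next 100 and 0.20 for the last 100 of the members. Outside, it was 0.16 for the ranks up to 1000 and -0.06 for those from there to 3000. Scaling to the sum of the 4 classes raised both medians, to 0.44 for the 300 and 0.15 for all entries. The count past the threshold over F1 to F3 depended on the method, with 1 member by edgeR, 45 by DESeq2, 26 without a filter on low counts and 15 with 4-class scaling.

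Single generations of WT gave few calls. At F1 and at F2 no member and 0% of entries passed edgeR's test, DESeq2 called 0 members, and 2 and 21 members had an unadjusted p under 0.05. At F3 1 member passed, as higher, when 0.125% of all entries did, 0.0376% as higher and 0.0877% as lower. It was again piR-cel-15879, with 833 and 1007 CPM under normoxia and 2154 and 3923 CPM under hypoxia, a log2 fold change of 1.72 ± 0.35 (edgeR adjusted p = 0.0394). The adjusted p rose to 0.2 without F3 WT normoxia replicate 1, to 0.175 without F3 WT normoxia replicate 2, to 0.0617 without F3 WT hypoxia replicate 2, to 0.0562 with a replicate block and to 0.0503 with 4-class scaling. The F3 count was 14 without F3 WT hypoxia replicate 2. The WT values of piR-cel-15879 at F1 were 344 and 603 against 556 and 706 CPM and those at F2 were 709 and 848 against 665 and 732 CPM, where the groups overlapped.

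A larger difference under hypoxia appeared in piR-cel-17390 once its entries were added together, a step chosen after the data were seen. In the 30 libraries with whole counts, each piRNA found in a library was listed under exactly 1 entry (187204 of 187204 pairs of piRNA and library), so the many zeros of piR-cel-17390:3-21 stand in libraries where another entry of this piRNA can hold the counts. Summed over its 7 entries it ranked 18 of all piRNAs. Summed, it measured 154 and 174 CPM under normoxia and 1444 and 1322 CPM under hypoxia in WT at P0. At F1 the WT values were 99.6 and 133 CPM against 2838 and 3164 CPM, at F2 1328 and 1090 against 3285 and 3071, and at F3 170 and 112 against 611 and 1323. In each WT generation both hypoxia libraries were above both normoxia libraries. The hrde-1 values were 590 and 180 CPM against 2580 and 910 at P0, 2246 and 2523 against 3728 and 2086 at F1, 4037 and 3026 against 7221 and 2657 at F2, and 2626 and 1792 against 1730 and 2251 at F3. The hrde-1 groups were apart at P0 and overlapped at F1, F2 and F3.

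With summed entries, piR-cel-17390 rose under hypoxia in WT by a log2 fold change of 3.07 ± 0.55 at P0 (edgeR adjusted p = 0.00947), 4.68 ± 0.59 at F1 (adjusted p = 0.000612) and 2.77 ± 0.56 at F3 (adjusted p = 0.0421), and by 2.94 ± 0.40 over F1 to F3 (adjusted p = 0.00427). At F2 the difference was 1.39 ± 0.51 with an adjusted p of 1. In hrde-1 it was 2.19 ± 0.53 at P0 (edgeR adjusted p = 0.153) and 0.22 ± 0.26 over F1 to F3 (adjusted p = 0.807). The difference between the genotypes over F1 to F3, tested as an interaction, was -2.74 ± 0.42 (edgeR adjusted p = 0.000408, and at most 0.00183 without any 1 library). The WT calls in single generations rest on 2 libraries a group, at P0 on the normoxia pair that stands apart. At P0 the adjusted p was 0.306, 0.271 and 0.106 without normoxia replicate 1, normoxia replicate 2 and hypoxia replicate 1, at F1 it was 0.164 and 0.0757 without normoxia replicate 1 and 2, and at F3 it was 0.139 and 0.267 without normoxia replicate 1 and 2. Over F1 to F3 it was 0.113 and 0.111 without F3 WT normoxia replicate 1 and 2 and 0.0984 without F3 WT hypoxia replicate 2. In hrde-1 at P0 the adjusted p was 0.0307 without hypoxia replicate 2. Summed piR-cel-17390 was also higher in hrde-1 than in WT under normoxia, by 2.73 ± 0.44 (edgeR adjusted p = 0.00441, and at most 0.0144 without any 1 library), and under hypoxia the difference was 0.49 ± 0.23 (edgeR adjusted p = 0.296).

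**Figure D2:**
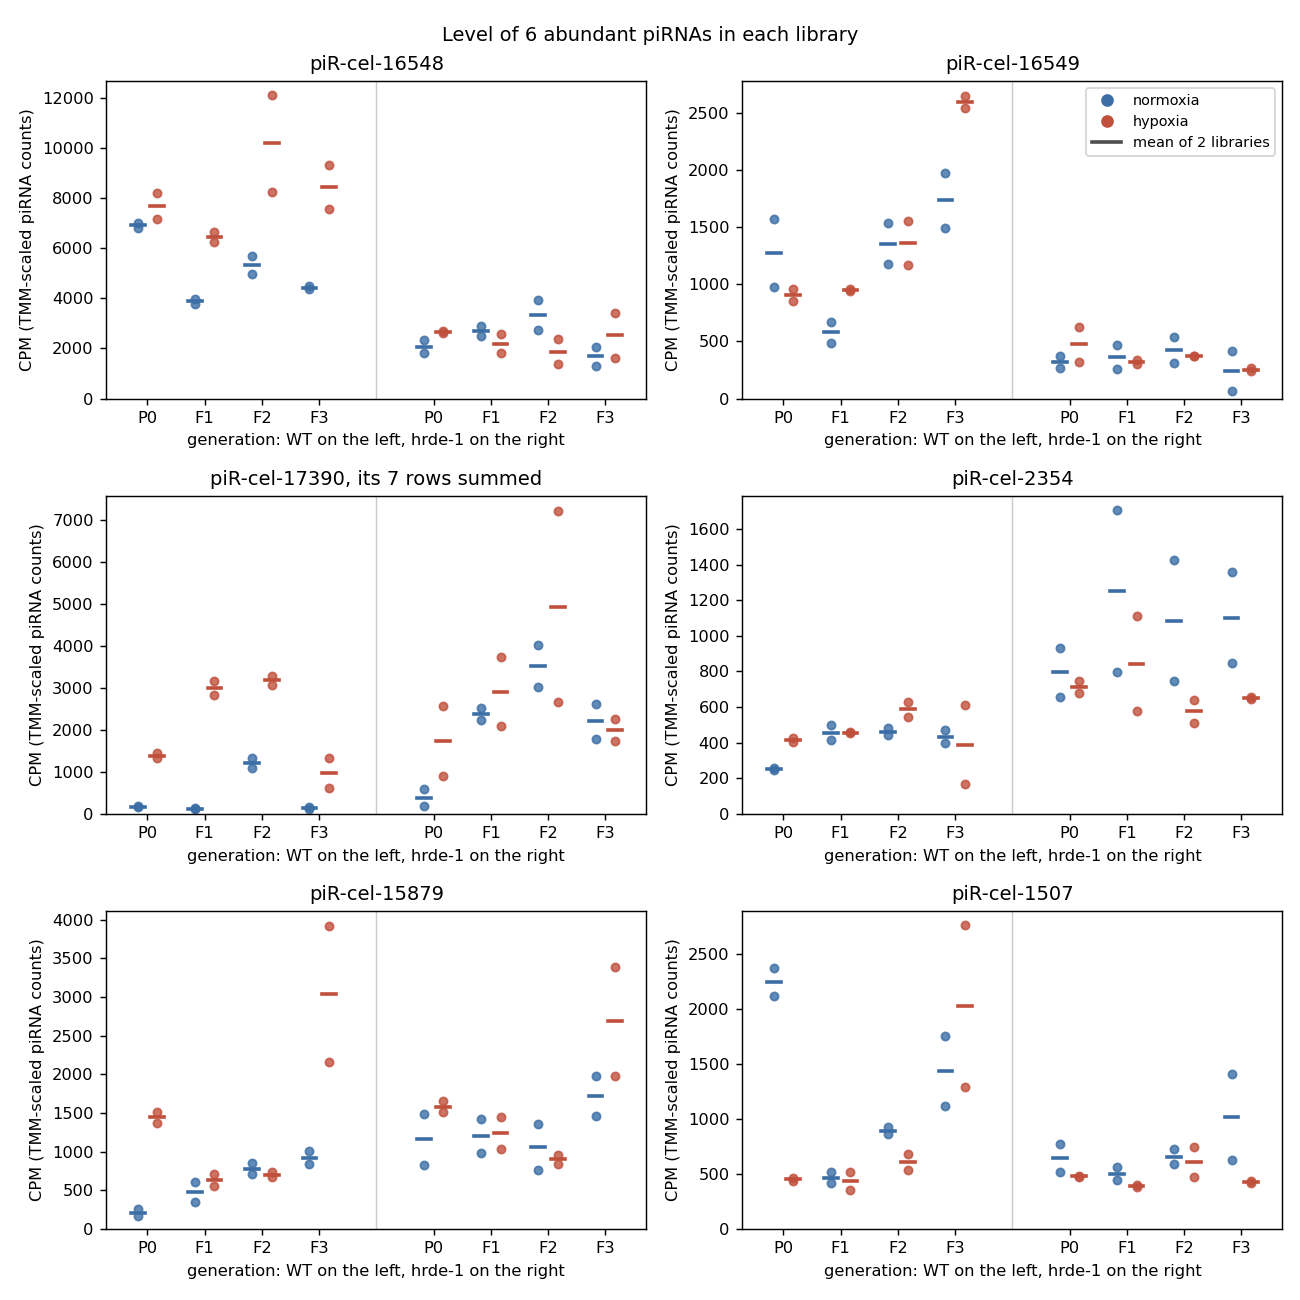
CPM of 6 abundant piRNAs (vertical axis, TMM-scaled) by generation (horizontal axis), WT on the left and hrde-1 on the right, with points for libraries and bars for means of 2. piR-cel-16548 lies between 3769 and 12143 CPM in WT and between 1309 and 3941 CPM in hrde-1, and piR-cel-17390 is shown with its 7 entries summed.

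In hrde-1, no member passed edgeR's test for hypoxia at P0, F1 or F2. Of all entries 0.1%, 0.0251% and 0% did, each called entry being higher and 0% lower, and DESeq2 called 1 member in each generation. At an unadjusted p under 0.05 there were 8, 46 and 30 members. The medians of the 300 were -0.11, -0.40 and -0.27, with 95, 30 and 60 of 300 above 0, against medians of 0.00, 0.02 and 0.03 for all entries. The ranks from there to 1000 were low too, with medians of -0.15, -0.35 and -0.15 and 30%, 16% and 35.9% above 0. From there to 3000 the medians were 0.02, -0.01 and 0.03. The smallest p-values belonged to piR-cel-4259 and piR-cel-2740 at P0, piR-cel-5483 and piR-cel-1848 at F1, and piR-cel-3627 and piR-cel-2378 at F2. piR-cel-5483 had a log2 fold change of -1.04 ± 0.32 at F1 (edgeR adjusted p = 0.522), and without the F3 libraries in the fit the adjusted p was 0.0287. piR-cel-3627 rested on 1 library, with -1.33 ± 0.40 at F2, -2.07 without F2 hrde-1 normoxia replicate 1 (edgeR adjusted p = 0.00222) and 0.27 without replicate 2. Over F1 to F3 no member and 0% of entries passed, 1 member passed by DESeq2, and 60 members had an unadjusted p under 0.05. The median was -0.19 for the 300 and 0.42 for all entries, and it was -0.28 for the first 100 ranks and -0.08 for the last 100 of the members. Outside, it was -0.05 for the ranks up to 1000 and 0.28 for those from there to 3000.

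The direction held across generations for only part of the 300. In WT, 65 members (21.7%) had a higher group mean under hypoxia in all 4 generations and 24 (8%) a lower one, when 5.34% and 13.3% of all 7978 entries did. In hrde-1, 7 (2.33%) were higher in all 4 generations and 80 (26.7%) lower, when 11.7% and 5.99% of all entries were. These are descriptions with no test.

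**Figure D3:**
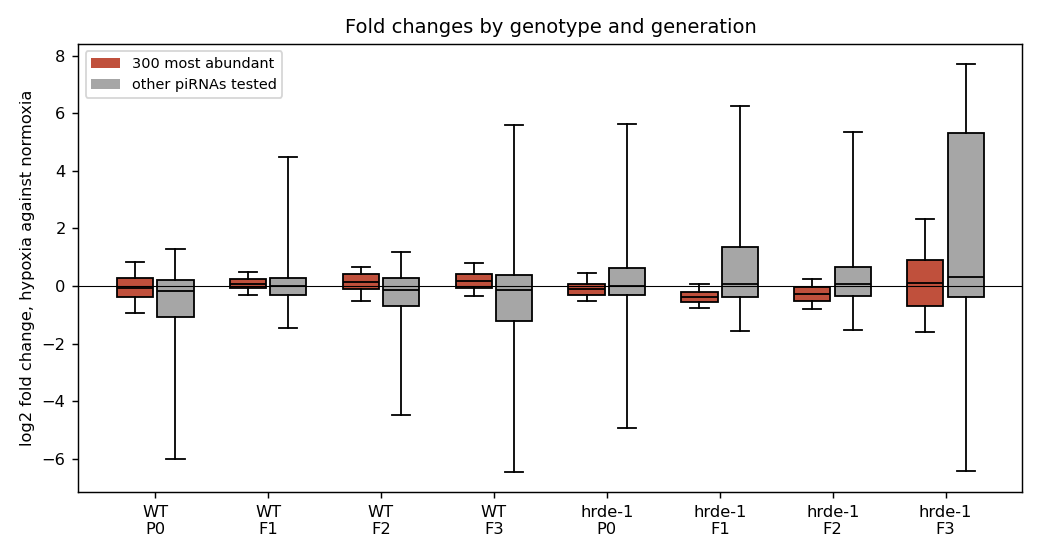
Log2 fold change of hypoxia against normoxia (vertical axis) for the 300 most abundant piRNAs (red) and the other entries tested (grey), by genotype and generation (horizontal axis). Boxes span the quartiles with the median as a line and whiskers reach the 5th and 95th percentiles. The medians of the 300 lie above 0 in WT at F1, F2 and F3 and below 0 in hrde-1 at P0, F1 and F2. The median was -0.08 in WT at P0 and 0.10 in hrde-1 at F3.

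At F3 hrde-1 stood out. Under hypoxia 71 of the 300 rose and 58 fell, or 43% of the members, when 21.3% of all entries passed, 16.3% as higher and 5.05% as lower. By rank, 36%, 43% and 50% passed in the first, the next and the last 100 of the members. Outside, 37.3% passed in the ranks up to 1000, 29.7% from there to 3000 and 14.4% above 3000, so the high share was not particular to the 300. The libraries that stand apart, F3 hrde-1 normoxia, are 1 arm of this comparison. The median log2 fold change of the 300 was 0.10, with 161 of 300 above 0, against 0.29 for all entries. The fold changes of the 300 reached from -1.61 at the 5th to 2.32 at the 95th percentile, where the same range in hrde-1 at F2 was -0.80 to 0.26. Leaving out each library in turn gave 92 to 141 members.

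Among the members that rose at F3, piR-cel-4139 measured 25 and 75 CPM in the normoxia libraries and 616 and 478 CPM in the hypoxia libraries, a log2 fold change of 3.41 ± 0.39 (edgeR adjusted p = 4.75e-08). The normoxia group was the low one, since F3 WT libraries had 371 to 658 CPM. piR-cel-5097 measured 134 and 35 against 1290 and 1060 CPM, and piR-cel-2686 measured 31 and 96 against 824 and 421 CPM, with log2 fold changes of 3.82 ± 0.51 and 3.27 ± 0.49 (edgeR adjusted p = 3.72e-06 and 1.25e-05). Each of these was low in the F3 hrde-1 normoxia libraries. piR-cel-4703 and piR-cel-999 also rose past the threshold, but each is listed at 0 in 1 normoxia library, with 71 and 31 CPM in the other, and no fold is given. piR-cel-499 measured 1098 and 423 CPM against 3010 and 12636 CPM (log2 fold change 3.37 ± 0.70, edgeR adjusted p = 0.0021), and here 1 hypoxia library held most of the signal.

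Among those that fell, piR-cel-3609 measured 1819 and 2296 CPM under normoxia and 319 and 417 CPM under hypoxia at F3, a log2 fold change of -2.48 ± 0.32 (edgeR adjusted p = 4.35e-07). In WT at F3 it stood at 1671 and 1614 CPM under normoxia and 1400 and 1629 CPM under hypoxia. Within hrde-1 normoxia its means were 410, 426 and 482 CPM at P0, F1 and F2 and 2057 CPM at F3, so the F3 hrde-1 hypoxia values lay near those of the earlier generations and the F3 hrde-1 normoxia values lay above them. piR-cel-1909 measured 1894 and 2179 against 369 and 295 CPM, with a log2 fold change of -2.61 ± 0.39 (edgeR adjusted p = 7.38e-06). piR-cel-3435 measured 1766 and 664 against 107 and 313 CPM, a log2 fold change of -2.54 ± 0.43 (edgeR adjusted p = 4.7e-05). piR-cel-2491 and piR-cel-3863 fell by 2.36 and 2.11 on the log2 scale, and piR-cel-3074 also fell (edgeR adjusted p = 0.000328).

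The most abundant piRNA was lower in hrde-1 than in WT. piR-cel-16548 measured 1309 to 3941 CPM over the 8 hrde-1 normoxia libraries and 3769 to 7016 CPM over the 8 WT normoxia libraries, where 1 F2 hrde-1 library reached into the WT range. Under hypoxia it ran from 1372 to 3415 CPM in hrde-1 and from 6259 to 12143 CPM in WT, with no overlap. These hypoxia groups did not overlap for 11 of the 300 and 0.514% of all 7978 entries. The log2 fold change of hrde-1 against WT was -1.102 ± 0.16 under normoxia (n = 8 libraries a group, edgeR adjusted p = 0.00113) and -1.82 ± 0.18 under hypoxia (edgeR adjusted p = 4.77e-07). It stayed past the threshold whichever library was left out.

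piR-cel-16549, the neighbouring number in the naming, followed the same order. It ran from 65 to 541 CPM in hrde-1 under normoxia and from 489 to 1981 CPM in WT, where the groups overlapped slightly. Under hypoxia the range was 239 to 629 CPM in hrde-1 and 858 to 2654 CPM in WT, without overlap. The log2 fold changes were -1.81 ± 0.35 and -1.91 ± 0.24 (edgeR adjusted p = 0.0103 and 3.6e-05), and both held whichever library was left out. The files give no locus for either piRNA, so whether they are adjacent in the genome is not known here.

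In all, under normoxia 20 of the 300 were higher in hrde-1 and 15 lower, when 2.45% of 6909 entries passed (1.24% higher, 1.2% lower), and under hypoxia 3 were higher and 23 lower, when 1.52% of 7179 did (0.905% higher, 0.613% lower). Both pairs of libraries that stand apart, and F2 hrde-1 normoxia replicate 2, enter the normoxia count. It was 16 without F2 hrde-1 normoxia replicate 2 or F3 WT normoxia replicate 1 and 58 without F3 hrde-1 normoxia replicate 2. The count was 20 to 23 without either P0 WT, P0 hrde-1 replicate 1, F1 hrde-1 replicate 2, either F2 WT or F3 WT replicate 2 normoxia library. The hypoxia count was 11 without F2 hrde-1 hypoxia replicate 2 and 13 to 17 without either P0 WT, P0 hrde-1 replicate 1, F1 WT replicate 2, F1 hrde-1 replicate 1, F2 WT replicate 1 or either F3 hrde-1 hypoxia library. Without the F3 libraries the counts were 58 and 48. With 4-class scaling the normoxia split was 12 higher and 4 lower, and the median of the 300 went from -0.06 to 0.06 (all entries -0.49 and -0.39). The share that passed under normoxia was 16%, 10% and 9% for the first, the next and the last 100 ranks of the members, 7.30% for the ranks from there to 1000 and 1.95% from there to 3000.

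Among the members past the threshold, with entries taken singly, piR-cel-2354 had the largest rise in hrde-1 under normoxia. It ran from 245 to 496 CPM over the 8 WT normoxia libraries. Over the 8 hrde-1 normoxia libraries it ran from 658 to 1709 CPM, with no overlap. Its log2 fold change was 1.40 ± 0.19 (edgeR adjusted p = 0.000723). These normoxia groups did not overlap for 8 of the 300 and 0.84% of all 7978 entries. piR-cel-15879, piR-cel-4658, piR-cel-7225, piR-cel-5453 and piR-cel-975 followed with log2 fold changes of 1.26, 1.08, 0.98, 0.85 and 0.82. Of these piR-cel-975 lost the call without either F3 WT normoxia library (edgeR adjusted p = 0.0577 and 0.0515 without replicate 1 and 2). Lower in hrde-1 beside the pair above were piR-cel-240, piR-cel-4571, piR-cel-295 and piR-cel-3435, with log2 fold changes of -0.999, -0.97, -0.93 and -0.85. Each of these 4 calls was lost without some library: without F3 WT normoxia replicate 1 the adjusted p was 0.0551 for piR-cel-240 and 0.0502 for piR-cel-4571, without F2 hrde-1 normoxia replicate 2 it was 0.0511 for piR-cel-4571 and 0.0512 for piR-cel-295, and for piR-cel-3435 leaving out any of 10 libraries gave 0.0563 to 0.122.

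Under hypoxia the members that rose in hrde-1 were piR-cel-4703, piR-cel-3740 and piR-cel-7255, with log2 fold changes of 1.04, 0.87 and 0.79. piR-cel-7255 held without any 1 library, piR-cel-4703 had an adjusted p of 0.0606 and 0.0541 without replicate 2 of F2 and of F3 hrde-1 hypoxia, and piR-cel-3740 lost the call in 8 of 16 such fits (up to 0.095). Beside piR-cel-16548 and piR-cel-16549 the largest falls were those of piR-cel-3435, piR-cel-2740, piR-cel-1740 and piR-cel-73, at -1.39, -0.97, -0.89 and -0.87. piR-cel-2740 ran from 254 to 526 CPM in hrde-1 and from 726 to 997 CPM in WT under hypoxia, with no overlap (edgeR adjusted p = 0.00223). piR-cel-2740 and piR-cel-73 held whichever library was left out. For piR-cel-3435 the adjusted p was 0.0514 to 0.0563 without any of 3 libraries (replicate 2 of F1 WT, F2 hrde-1 and F3 hrde-1 hypoxia), and for piR-cel-1740 it was 0.0514 to 0.0809 without any of 6.

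The difference between the genotypes in their response to hypoxia was tested as an interaction. At P0 no member and 0% of entries passed by edgeR, 17 members had an unadjusted p under 0.05 and 2 passed by DESeq2, namely piR-cel-15879 and piR-cel-1507, whose edgeR adjusted p-values were 0.0615 and 0.304. Over F1 to F3, 41 of the 300 had a lower response in hrde-1 than in WT and 2 a higher one, when 9.58% of all entries passed. Among all entries the split ran the other way, with 656 higher and 108 lower (8.22% and 1.35% of entries). The median interaction was -0.34 for the 300, -0.16 for the ranks from there to 1000 and 0.46 from there to 3000. Left out in turn, single libraries gave 20 members (without F2 hrde-1 normoxia replicate 2) to 102 (without F3 hrde-1 normoxia replicate 2), with 77 without F3 WT hypoxia replicate 2 and 67 without F2 hrde-1 normoxia replicate 1. Leaving out any 1 of 10 other libraries gave 22 to 28, and the fit without F3 gave 30.

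With entries taken singly, the largest of these was piR-cel-5453. In WT at F1 it went from 475 and 377 CPM under normoxia to 496 and 527 CPM under hypoxia. In hrde-1 at F1 it went from 851 and 963 CPM to 594 and 675 CPM. At F2 the WT values were 538 and 521 against 761 and 699 CPM and the hrde-1 values 702 and 964 against 494 and 553 CPM. At F3 they were 497 and 406 against 832 and 433 CPM in WT and 1401 and 1039 against 455 and 295 CPM in hrde-1. The hypoxia libraries were thus the higher ones in WT at F1 and F2 and the lower ones in hrde-1 at F1, F2 and F3, and only WT at F3 overlapped. The interaction was -1.37 ± 0.25 (edgeR adjusted p = 0.000779). piR-cel-3925, piR-cel-3876, piR-cel-1233, piR-cel-1909 and piR-cel-163 had interactions of -1.34, -1.27, -1.18, -1.16 and -1.15. Without the F3 libraries piR-cel-1909 and piR-cel-163 did not pass (edgeR adjusted p = 0.584 and 0.0902), and piR-cel-1909 also lost the call without F3 WT hypoxia replicate 1 (0.0545). The 2 positive ones were weak: piR-cel-459 at 1.02 ± 0.30 (edgeR adjusted p = 0.03) lost the call without any of 10 libraries (0.0531 to 0.0774), and piR-cel-7255 at 0.80 ± 0.25 (edgeR adjusted p = 0.0378) lost it without any of 13 (0.0501 to 0.0845) and was -0.09 without the F3 libraries.

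**Figure D4:**
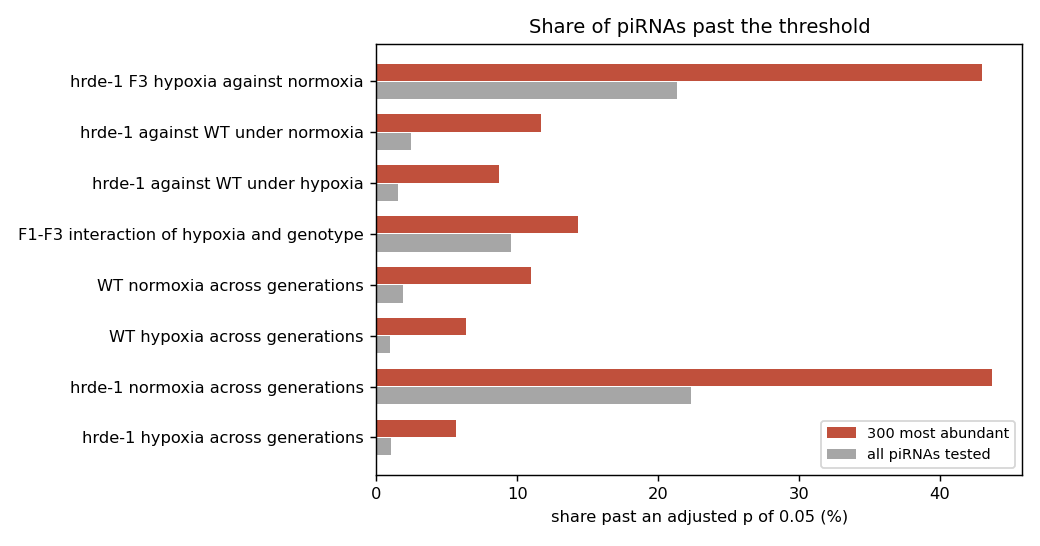
Percentage of entries past an adjusted p of 0.05 (horizontal axis) in the 8 comparisons with the most calls (vertical axis), for the 300 most abundant piRNAs (red) and all entries tested (grey). The largest shares are the 43% of the 300 in hrde-1 at F3 under hypoxia and the 43.7% in hrde-1 normoxia across generations.

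Generations differed within a line as well. Tested over the 4 generations at once, 33 of the 300 changed under normoxia and 19 under hypoxia in WT, when 1.86% and 0.99% of all entries did, and 131 and 17 in hrde-1, when 22.3% and 1.04% did. Without the F3 libraries the 4 counts became 78, 0, 24 and 0. The WT normoxia count includes the P0 libraries that stand apart. Without P0 WT normoxia replicate 2 it was 7, and it was 12, 19, 20 and 16 without P0 replicate 1, F1 replicate 1, F3 replicate 1 and F3 replicate 2. The WT hypoxia count was 6 without F3 replicate 1, 38 without F3 replicate 2 and 10 without either P0 library or F1 replicate 1. The hrde-1 hypoxia count was 5 without F3 replicate 2, 6 and 8 without P0 replicate 1 and 2, 10 without F1 replicate 2 and 8 without F3 replicate 1. Generation and the time at which its animals were collected cannot be told apart in this design.

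Several members were highest at F3. piR-cel-459 went from 128 and 142 CPM at P0 to 501 and 769 at F1, 1071 and 1180 at F2 and 1808 and 1489 at F3 in WT normoxia (edgeR adjusted p = 6.01e-06). The 4 groups of this line did not overlap, and its lowest, P0, is the pair that stands apart. In WT hypoxia it had group means of 232, 665, 514 and 1991 CPM from P0 to F3 (edgeR adjusted p = 0.000104). piR-cel-15716 had means of 377, 1051, 2095 and 3537 CPM from P0 to F3 in WT normoxia and 915, 694, 839 and 4679 CPM in WT hypoxia (edgeR adjusted p = 0.00151 and 0.00106). In the F3 hrde-1 libraries it stood at 3922 and 4290 CPM under normoxia and 1247 and 3411 CPM under hypoxia. piR-cel-15707 and piR-cel-1712 lay higher in all 8 F3 libraries than in all 24 others, and of all 7978 entries 3 did so (0.0376%). Counts at F3 were part of the choice of the 300, so how many of the 3 are members carries no weight. Relative to the plain library total piR-cel-15707 had a median of 449 and a mean of 822 CPM. The member of rank 300 had a mean of 607 CPM. piR-cel-1507 and piR-cel-15879 passed in both WT lines with other courses. For piR-cel-1507 the means from P0 to F3 were 2246, 467, 892 and 1439 CPM in WT normoxia, highest at P0, and 451, 434, 609 and 2030 CPM in WT hypoxia. For piR-cel-15879 they were 207, 474, 778 and 920 CPM in WT normoxia and 1443, 631, 699 and 3038 CPM in WT hypoxia. For piR-cel-1507 under hypoxia the adjusted p was 0.176 without F3 WT hypoxia replicate 1, and for piR-cel-15879 under normoxia it was 0.137 without P0 WT normoxia replicate 2.

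Others were lowest at F3. piR-cel-5464 had means of 2155, 857, 826 and 586 CPM from P0 to F3 in WT normoxia (edgeR adjusted p = 0.000307) and 1399, 1047, 679 and 505 CPM in hrde-1 hypoxia (edgeR adjusted p = 0.0134). In hrde-1 hypoxia, piR-cel-5109 had means of 834, 621, 477 and 196 CPM (edgeR adjusted p = 0.00087) and piR-cel-4571 800, 524, 401 and 116 CPM (edgeR adjusted p = 0.00351). The hrde-1 hypoxia call of piR-cel-5464 was lost without P0 replicate 1 (0.0764) or F3 replicate 2 (0.0748), and that of piR-cel-4571 without F3 replicate 1 (0.0728). In hrde-1 normoxia the low values stood at F3: piR-cel-4139 had means of 1103, 1133 and 664 CPM before its 25 and 75 CPM at F3, and piR-cel-3588 had means of 1039, 1306, 953 and 78.1 CPM (edgeR adjusted p = 2.98e-09 and 2.23e-08). piR-cel-3588 was lower in all 8 F3 libraries than in all 24 others, as were 16 of all entries (0.201%). Without the F3 libraries the named members of the WT hypoxia and hrde-1 hypoxia lines, and piR-cel-4139 and piR-cel-3588 in hrde-1 normoxia, no longer passed.

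**Figure D5:**
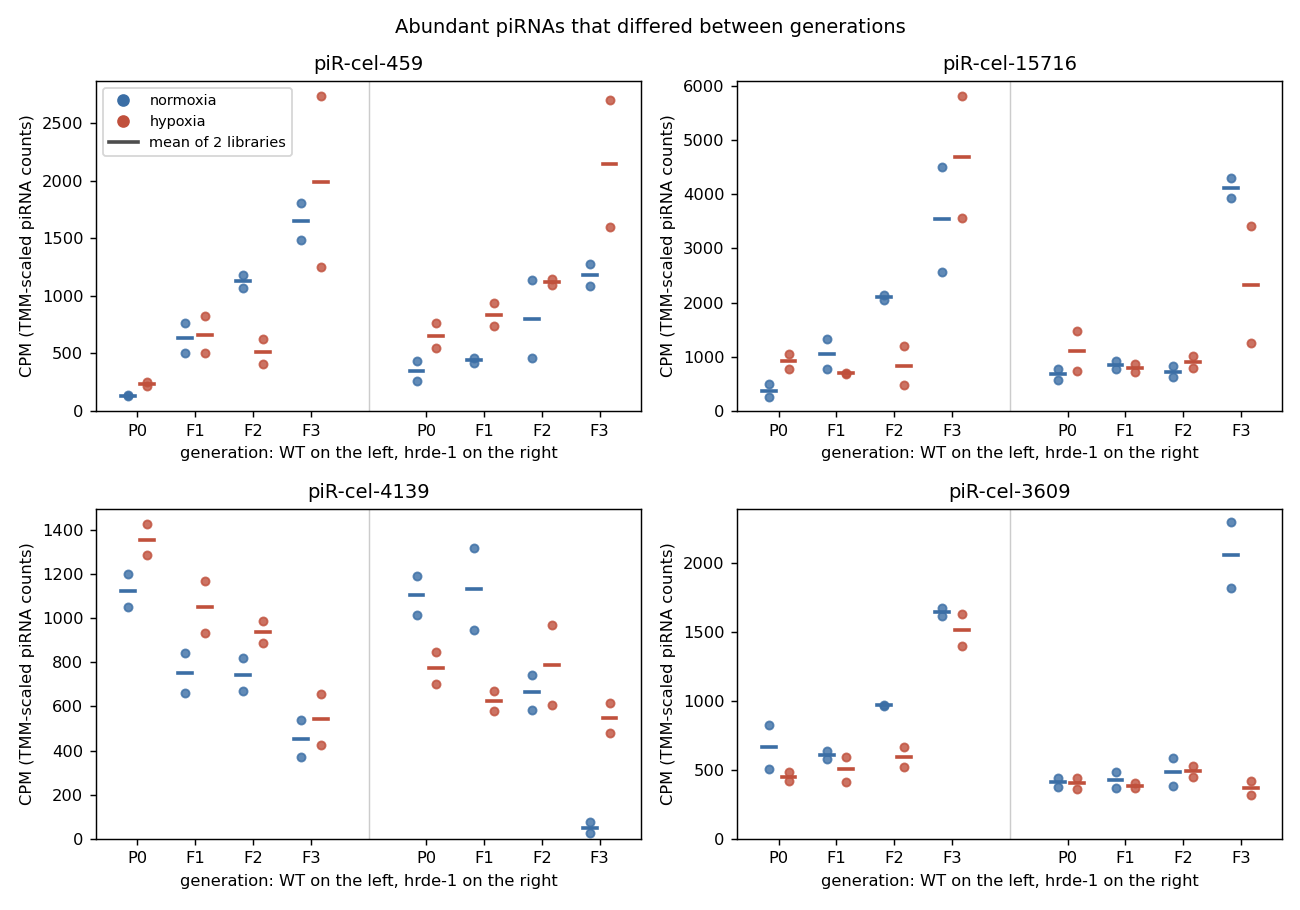
CPM of 4 abundant piRNAs that differed between generations (vertical axis, TMM-scaled) by generation (horizontal axis), WT on the left and hrde-1 on the right, with points for libraries and bars for means of 2. In WT normoxia piR-cel-459 climbs from 128 and 142 CPM at P0 to 1808 and 1489 CPM at F3, and in hrde-1 normoxia piR-cel-4139 drops to 25 and 75 CPM at F3.

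22G RNA was also counted per gene, and of 31 listed genes that act in making, trimming or carrying piRNAs 26 were tested. pid-1, pid-2 and unc-130 had too few 22G counts, and the names prg-2 and tofu-3 had no match in the gene annotation. The 22G class holds reads antisense to messenger RNA and does not measure the genes' own expression. Under hypoxia, over F1 to F3, 1 of the 26 rose in WT, when 4.64% of 8485 genes passed, and none in hrde-1, when 0.176% of 8523 did (no listed gene there had an unadjusted p under 0.05 by edgeR). The 1 was lsl-1, a transcription factor of the germline, with a log2 fold change of its 22G counts of 0.78 ± 0.13 (edgeR adjusted p = 0.00335). Between genotypes, 6 of 26 had more 22G RNA in hrde-1 and 1 less, both under normoxia and under hypoxia, when 28% and 38.1% of genes passed. The listed genes were thus called no more often than all genes. The normoxia comparison holds the P0 WT normoxia libraries, where 22G RNA made up 9.27% and 6.15% of the 4-class counts. It also holds F2 hrde-1 normoxia replicate 2, where 22G RNA made up 14.9%. Their part was not tested apart from leaving out single libraries. henn-1, the methyltransferase that protects the 3′ end of piRNAs, was the lower one, at -1.40 ± 0.48 and -0.83 ± 0.26 (edgeR adjusted p = 0.0343 and 0.0137). Among the higher ones, snpc-3.2, a subunit of a complex that acts in the transcription of small RNA genes, was at 1.03 ± 0.24 and 1.07 ± 0.30. prg-1, which encodes the Piwi protein, was at 0.37 ± 0.11 under hypoxia. With 4-class scaling the counts between genotypes became 1 higher and 0 lower under normoxia and 0 higher and 5 lower under hypoxia. There henn-1 passed only under hypoxia (edgeR adjusted p = 0.432 under normoxia and 0.00159 under hypoxia). snpc-3.2 passed only under normoxia (edgeR adjusted p = 0.0279, and 0.0841 under hypoxia). prg-1 under hypoxia was at 0.02 (edgeR adjusted p = 0.929).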

How the data were processed

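Small RNA of whole worms was sequenced in 32 libraries. The authors deposited counts per piRNA, miRNA, snoRNA and 22G gene, and the submitters' processing notes name FastQC, cutadapt 2.5, featureCounts and edgeR. The aligner and genome build are not given in the sources used here. In 2 deposited libraries, both F2 WT normoxia, the values are expected counts, with up to 40.1% of piRNA values fractional, and these were rounded for the tests. In the 22G counts, 5 summary rows holding 32.6% of that total were left out. Depth was 215629 to 738793 piRNA counts per library.

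Counts were scaled by TMM, filtered with filterByExpr (minimum count 10) and tested with the quasi-likelihood test of edgeR 4.0.16 (limma 3.58.1, R 4.3.3) over all entries, with Benjamini-Hochberg adjustment at 0.05. Comparisons within a generation, across generations and at interactions used all 16 groups, and pooled comparisons had generation as a term. Members and lists were chosen with earlier results of these data known. Named members were the 10 most abundant, up to 6 per direction with the largest change among those past the threshold (the 6 smallest p-values across generations), or up to 2 with the smallest p where none passed. Scripts were tested on simulated data and tables were handled in Python 3.11.15. Alternatives were DESeq2 1.42.0, its size factors, the 4-class library size, no filter, a replicate block and each library left out, for which the trended dispersion was reused. Summing entries of a piRNA and leaving out F3 were chosen after seeing the data.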

Additional observations from a re-analysis of the deposited data

Results flagged for a closer look

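The response to hypoxia over F1 to F3 differed between genotypes for 43 of the 300 most abundant piRNAs by edgeR's interaction test, when it did so for 9.58% of all entries. The count was 20 without F2 hrde-1 normoxia replicate 2 and 102 without F3 hrde-1 normoxia replicate 2. With entries taken singly, the largest of these interactions (hrde-1 minus WT, log2) were piR-cel-5453 at -1.37, piR-cel-3925 at -1.34 and piR-cel-3876 at -1.27. Next came piR-cel-1233 at -1.18, piR-cel-1909 at -1.16 and piR-cel-163 at -1.15. The positive ones were piR-cel-459 at 1.02 and piR-cel-7255 at 0.80. The F3 hrde-1 normoxia libraries that stand apart enter this test, and their part in it was not tested beyond the counts given without F3.

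The share of piRNA counts held by the 300 differed in direction between genotypes. Hypoxia minus normoxia averaged 2.82 percentage points over the 4 WT generations and -3.60 points over the 4 hrde-1 generations. This difference between genotypes was not tested.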

How the results depend on the processing

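Counts are members past the threshold. DESeq2's test gave 15 in WT at P0, 5 in WT at F3, 1 each in hrde-1 at P0, F1, F2 and over F1 to F3, 45 in WT over F1 to F3, 76 and 71 between genotypes under normoxia and hypoxia, and 2 and 72 for the P0 and F1 to F3 interactions. Without a filter the counts were 7 in WT at P0, 2 in WT at F3, 1 in hrde-1 at P0, 26 in WT over F1 to F3, 54 and 58 between genotypes, 1 for the P0 interaction, 60, 37 and 33 across generations in WT normoxia, WT hypoxia and hrde-1 hypoxia, and 9 for 22G of pathway genes. With 4-class library size they were 0 in WT at F3, 15 in WT over F1 to F3, 16 between genotypes under normoxia, 71 for the F1 to F3 interaction, 18 and 11 across generations in WT normoxia and hrde-1 hypoxia, and 8 for pathway genes. With entries summed they were 4, 1 and 2 in WT at P0, F1 and F3 and 2 over F1 to F3. Without the F3 libraries they were 22 in WT at P0, 1 in hrde-1 at F1, 0 in WT over F1 to F3, 58 and 48 between genotypes, 2 for the P0 interaction, and 78, 0, 24 and 0 across generations. With the replicate block WT at F3 gave 0, and no other count moved by over 1.5 times. For most pairs of groups, replicate numbers did not pair the libraries. A correlation over 0.1 was seen in 3 of 120 pairs of groups, with a median of 0.002 and a highest of 0.563. Leaving out 1 library gave 1 to 2 in WT at P0, 0 to 14 in WT at F3, 0 to 1 in hrde-1 at F1 and at F2, 92 to 141 in hrde-1 at F3, 16 to 58 and 11 to 32 between genotypes, 20 to 102 for the F1 to F3 interaction, 7 to 26, 6 to 38, 116 to 158 and 5 to 19 across generations, and 13 to 19 for pathway genes. Directions reversed for piR-cel-3627 in hrde-1 at F2 when F2 hrde-1 normoxia libraries were left out one at a time (-2.07 to 0.27) and for piR-cel-7255 in the interaction without F3 (-0.085). The causes were not tested.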

Other observations

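Of the 300, 6 have a piRNA number of 15707 or more (piR-cel-16548, piR-cel-15716, piR-cel-15879, piR-cel-17390, piR-cel-16549 and piR-cel-15707), a division chosen after their values were seen. Their coefficients of variation over the 32 libraries ran from 57.3% to 134%, with a median of 85.8%. The other 294 had a median of 30.8%. The 134% is that of the single entry piR-cel-17390:3-21, whose zeros stand where another entry of this piRNA can hold the counts. Next below it was piR-cel-15707 at 99.5%. Entries outside the 300 with such numbers were not compared. What the number stands for is not given in the sources used here.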
